A study of Homo sapiens with 6 samples.

Results

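The SP100 family and the PML nuclear body genes were followed in HEK293T, a cell line derived from human embryonic kidney that expresses SV40 large T antigen, after treatment with valproic acid (VPA), an inhibitor of class I and IIa histone deacetylases. The members were chosen by symbol, namely SP100, SP110, SP140, SP140L, PML, DAXX and ATF7IP2, 7 of the 47470 genes listed. The 3 VPA libraries came from cells kept for 1 day in 1 mM VPA, and the 3 untreated libraries from cells of the same line without the drug, labelled wild type. Total RNA was made into strand-specific mRNA libraries, and the deposited values were raw counts per gene. Nothing in the labels says that the libraries of a condition came from separate cultures, so the p-values measure the spread between these libraries, which may be technical. Of the 7 members, 5 had enough counts to be tested, and SP100 and SP140 did not.

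PML nuclear bodies are small protein assemblies in the nucleus that are built by PML and held together by the small modifier SUMO. SP100 is a permanent resident of these bodies, and its relatives SP110, SP140 and SP140L share with it the SAND DNA-binding domain. DAXX, a chaperone of histone H3.3, is recruited to the bodies and works with ATRX, and ATF7IP2 is a relative of ATF7IP, the partner of the histone H3K9 methyltransferase SETDB1. PML and several SP100 family genes are known as interferon-stimulated genes, and SP140 is known mainly from leukocytes. The study set gene expression beside chromatin compartments and contacts with the nuclear lamina, and the comparison here asks which of these genes differed in transcript level after VPA.

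The 4 SP100 family genes lie side by side on chromosome 2. In RefSeq on GRCh38.p14, SP110 runs from 230165186 to 230225636 on the minus strand, SP140 from 230186151 to 230316571 on the plus strand, SP140L from 230327193 to 230403732 and SP100 from 230416201 to 230545606, both on the plus strand. The spans of SP110 and SP140 overlap. The SP110 start at 230225636 and the SP140 start for which a window was given, 230225736, which lies inside the SP140 span, are 100 bases apart and point away from each other. PML is on chromosome 15 from 73994716 to 74047827, DAXX on chromosome 6 from 33318558 to 33322959 and ATF7IP2 on chromosome 16 from 10386061 to 10483638. The RefSeq table of start regions, each reaching from 250 bases before to 50 bases after a transcript start, held 6 windows for 4 of the 7 members. PML, DAXX and ATF7IP2 were not among them.

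The windows of SP110 and SP140L are printed because both genes rose, and the first of SP100 because it is the closest relative of the SP140L window. Each is given 5′ to 3′ on the strand of its gene, with the longest run that both SP110 windows share with the SP140L window, or its nearest match, in capitals. The first SP110 window is chr2:230225587-230225886 on the minus strand, the second SP110 window chr2:230219935-230220234 on the minus strand, the SP140L window chr2:230326943-230327242 on the plus strand and the SP100 window chr2:230415951-230416250 on the plus strand.
SP110 first start: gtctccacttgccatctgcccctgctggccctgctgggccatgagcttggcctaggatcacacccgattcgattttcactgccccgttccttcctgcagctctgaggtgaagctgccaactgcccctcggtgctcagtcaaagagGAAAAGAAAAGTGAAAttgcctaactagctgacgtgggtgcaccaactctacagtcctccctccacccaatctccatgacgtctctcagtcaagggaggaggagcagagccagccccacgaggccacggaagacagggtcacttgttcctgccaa
SP110 second start: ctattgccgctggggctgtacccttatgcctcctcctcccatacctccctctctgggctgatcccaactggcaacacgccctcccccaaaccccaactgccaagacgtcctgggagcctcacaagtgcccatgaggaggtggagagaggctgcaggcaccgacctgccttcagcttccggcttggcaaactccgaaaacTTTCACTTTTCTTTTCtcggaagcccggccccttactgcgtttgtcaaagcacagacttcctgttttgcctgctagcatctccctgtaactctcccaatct
SP140L: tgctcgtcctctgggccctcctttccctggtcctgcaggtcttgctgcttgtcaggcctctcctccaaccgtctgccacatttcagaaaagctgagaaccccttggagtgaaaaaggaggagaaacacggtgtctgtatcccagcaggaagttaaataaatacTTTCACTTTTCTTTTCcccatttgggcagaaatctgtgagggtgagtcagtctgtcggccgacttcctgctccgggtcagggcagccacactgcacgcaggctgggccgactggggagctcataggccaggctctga
SP100: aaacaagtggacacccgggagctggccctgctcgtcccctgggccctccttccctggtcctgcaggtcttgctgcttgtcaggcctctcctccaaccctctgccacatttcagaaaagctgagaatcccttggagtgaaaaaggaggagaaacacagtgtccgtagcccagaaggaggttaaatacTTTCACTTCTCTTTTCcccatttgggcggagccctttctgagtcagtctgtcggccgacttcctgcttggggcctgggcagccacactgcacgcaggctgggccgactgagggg

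The shared run was 16 bases long, TTTCACTTTTCTTTTC, and it lay on the gene's own strand in the second SP110 window and in SP140L, and on the opposite strand in the first SP110 window. It was found in 4 of the 35116 windows in the table (0.0114%, both strands searched), which were those of SP110, its second start, SP140 and SP140L. The SP140 window and the first SP110 window share 199 genomic bases, so the 4 windows hold 3 separate copies. All 3 were fixed by the choice of the run, so the share shows only that no other window held it. The printed SP100 window carried the run with a single substitution, T9C, counted from 1 at the 5′ end of the run as printed for SP140L. That form was in 1 of the 35116 windows. The other SP100 window, chr2:230416506-230416805, did not carry the run, its best match having 6 mismatches. The first 8 bases, TTTCACTT, which overlap the run, were in 1.62% of windows. The SP140L window and the printed SP100 window were 93% identical over 272 aligned bases. The other pairs of member windows without shared genomic bases gave 66.7% to 81.2% under the same alignment. Gaps were left out of these shares and no unrelated windows were aligned, so the lower values are not a measure of likeness. The run was looked for with the changes in these genes already known, and it is a description of these letters and not of a bound site.

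SP110, which encodes an interferon-inducible nuclear protein, showed the largest change of the tested members. Its normalized counts, which are counts scaled by the TMM method to the mean library, were 49.7, 32.4 and 44.1 without VPA against 115, 114 and 103 with VPA. Every VPA library lay above every untreated library, with means of 42.0 ± 8.79 and 111 ± 6.34 (SD, n = 3 each). This was a log2 fold change of 1.39 ± 0.15 (standard error), its 95% interval 1.08 to 1.70, and edgeR's quasi-likelihood test over the 15298 tested genes gave an adjusted p of 5.77e-08. Of all tested genes, 7.69% had a log2 fold change at least as large. The whole count behind SP110 was 467 reads over the 6 libraries.

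SP140L, a near relative of SP140 and SP100, was the second family member to rise. It had 94.1, 97.3 and 97.5 normalized counts without VPA against 140, 146 and 165 with VPA. The untreated values were close together, the VPA values were spread more widely, and the groups did not overlap. The means were 96.3 ± 1.89 and 151 ± 13.4 (SD, 3 libraries per condition). Its log2 fold change of 0.64 ± 0.11 (standard error) had an adjusted p of 3.32e-05 with edgeR. The change was below the study's threshold, which is 1 on the log2 scale.

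SP100 itself was scarcely counted. Its raw counts were 1, 4 and 0 without VPA against 5, 5 and 11 with VPA, 26 reads in all, and for a library at 0 the limit is 3 counts. The VPA libraries were each above the untreated ones, with a ratio of the summed counts of 4.23 and a 95% counting interval of 1.55 to 14.4, which covers counting error only. The gene did not pass the filter on low counts. Without that filter edgeR gave a log2 fold change of 1.86 with an adjusted p of 0.0173, and DESeq2 gave 1.93 with an adjusted p of 0.117, so the call depended on the tool. Exons of other genes cover 4.68% of the SP100 exon bases in GENCODE 44, among them the pseudogene HMGB1P3 on the same strand.

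SP140, the bromodomain protein of leukocytes, had 0, 0 and 1 raw counts without VPA against 0, 1 and 1 with VPA. A difference was not detectable at this depth, and the ratio of 2.01 had a counting interval of 0.105 to 119. Per kilobase of exon, SP140 was at 0.0061 ± 0.0053 CPM (counts scaled to a fixed library size) in VPA-treated cells and SP110 at 0.553 ± 0.0317 (SD, n = 3). Exons of other genes on the opposite strand, SP140 among them, cover 19.4% of the SP110 exon bases. The strand setting of the counting was not given in the sources used here, so reads from that part of SP110 may have been set aside as ambiguous.

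**Figure D1:**
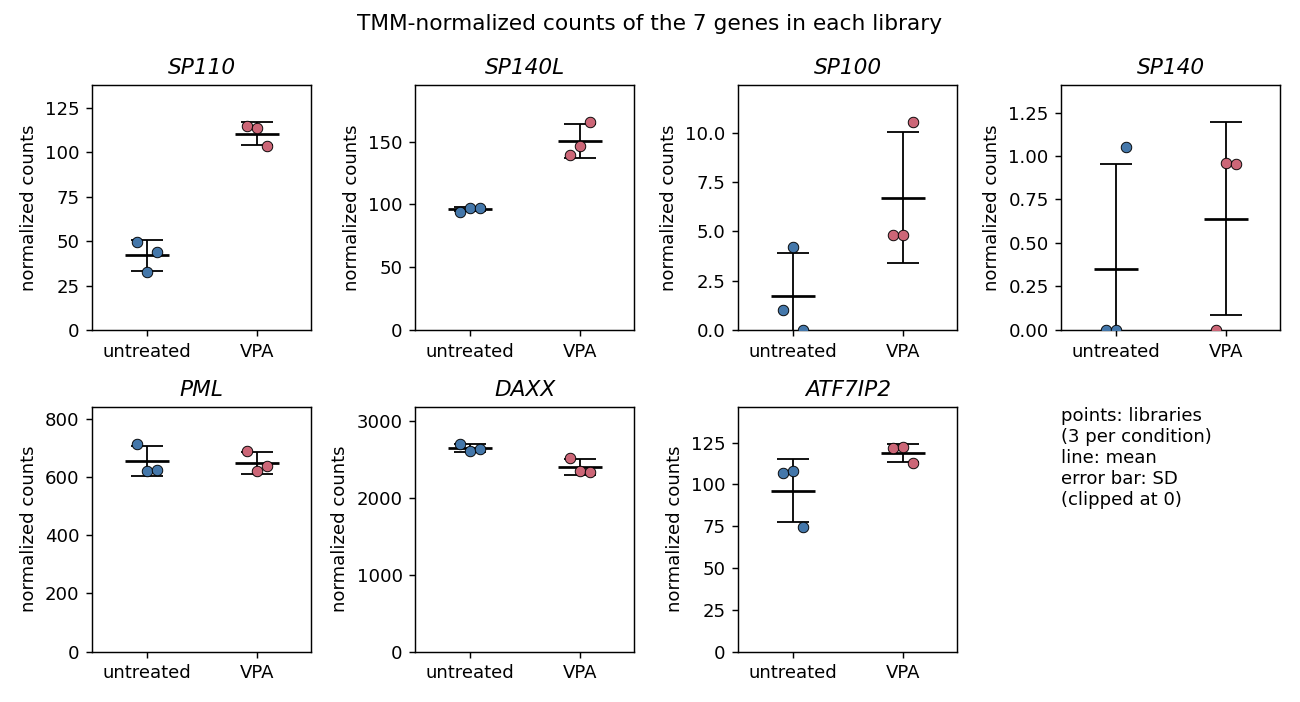
Normalized counts (vertical axes, each from 0) of the 7 genes in untreated and VPA libraries. Points are libraries, lines are means and error bars are SD over 3 libraries. SP110 and SP140L were higher in each VPA library, PML overlapped between conditions, and SP100 and SP140 rest on 26 and 3 reads.

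PML, the scaffold of the bodies, passed no test. Its normalized counts were 714, 622 and 626 without VPA against 690, 620 and 637 with VPA. The groups overlapped, with means of 654 ± 51.7 and 649 ± 36.7 (SD, n = 3 each). Its log2 fold change was -0.011 ± 0.064 (standard error; adjusted p = 0.891, edgeR), with a 95% interval from -0.14 to 0.12. Its sign changed with the scaling, to 0.054 with upper quartile and 0.12 with library totals, neither past the threshold.

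DAXX, the chaperone, had 2704, 2608 and 2634 normalized counts without VPA against 2518, 2356 and 2334 with VPA. Every VPA library was below every untreated one by a small margin. Its log2 fold change of -0.14 ± 0.043 (standard error) had an adjusted p of 0.00692 with edgeR. This call was lost when the libraries were scaled to their upper quartile (-0.075, adjusted p = 0.132, edgeR) or to their totals (-0.0092, adjusted p = 0.867, edgeR). Its usual partner ATRX, on chromosome X, is listed at 0 in every library, as are the other genes of that chromosome.

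ATF7IP2 had 107, 108 and 74.5 normalized counts without VPA against 122, 122 and 113 with VPA. Untreated replicate 3 was far below the others, and the closest values of the conditions were 108 and 113. Its log2 fold change of 0.30 ± 0.13 (standard error) had an adjusted p of 0.0482 with edgeR. Without untreated replicate 3 it was 0.14 (adjusted p = 0.343, edgeR), and DESeq2 gave 0.28 with an adjusted p of 0.227. The call was also lost when any of the 3 VPA libraries was left out.

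Among the 5 tested members, 3 were higher and 1 lower at an adjusted p under 0.05, and 1, SP110, also passed the log2 fold change of 1. Over all tested genes, 32.9% were higher and 30% lower at the adjusted p alone, and 12% were higher and 0.503% lower with the fold change threshold. The median log2 fold change was 0.30 over the 5 members and 0.0058 over all tested genes. The groups did not overlap for 3 tested members in the upward and 1 in the downward direction, where 34.8% and 31% of all tested genes did the same. The members are too few for these shares to be set apart from those of all genes. Scaling to library totals raised the median of all tested genes to 0.14, a shift as large as the DAXX difference. In RNA from a whole culture, fewer cells with a transcript and less transcript per cell cannot be told apart.

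The levels of the members were far apart. Per kilobase of exon in GENCODE 44, untreated cells had 45.9 ± 0.859 CPM of DAXX (SD, n = 3), 2.76 ± 0.218 of PML, 0.911 ± 0.0179 of SP140L, 0.805 ± 0.158 of ATF7IP2 and 0.210 ± 0.0440 of SP110. SP140L and ATF7IP2 did not differ beyond their spread there. SP100 and SP140, at 0.0066 ± 0.0082 and 0.0033 ± 0.0058, could not be ordered. In VPA-treated cells SP110 was at 0.553 ± 0.0317, still below ATF7IP2 at 0.994 ± 0.0437 and SP140L at 1.42 ± 0.126. SP110 was thus the lowest of the 5 tested members in both conditions. On this scale 8.47% of the tested genes were below SP110 in untreated and 12.2% in VPA-treated cells, against 93.4% and 93.6% for DAXX. Exon lengths take in all annotated transcripts, so a gene with many long variants is placed too low.

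Within the SP100 family the counts were set against each other in the same library, which does not depend on scaling. The 4 genes together had 140, 128 and 136 raw counts without VPA against 271, 276 and 293 with VPA. SP110 made up 34.3%, 24.2% and 30.9% of them without VPA against 44.3%, 42.8% and 36.9% with VPA, as shares of reads and not per length. Each VPA share was above each untreated share, although the exact binomial intervals of single libraries overlapped, for example 26.5% to 42.8% for untreated replicate 1 and 31.3% to 42.7% for VPA replicate 3. The mean share was 29.8% ± 5.12 without and 41.3% ± 3.92 with VPA (SD over 3 libraries), a difference of 11.5 percentage points (two-sided exact permutation p = 0.1, which no 3 libraries against 3 can go below). The ratio of SP110 to SP140L counts was 0.528, 0.333 and 0.452 without VPA against 0.822, 0.776 and 0.624 with VPA, which do not overlap either. The difference in its log2 was 0.78 (two-sided exact permutation p = 0.1).

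**Figure D2:**
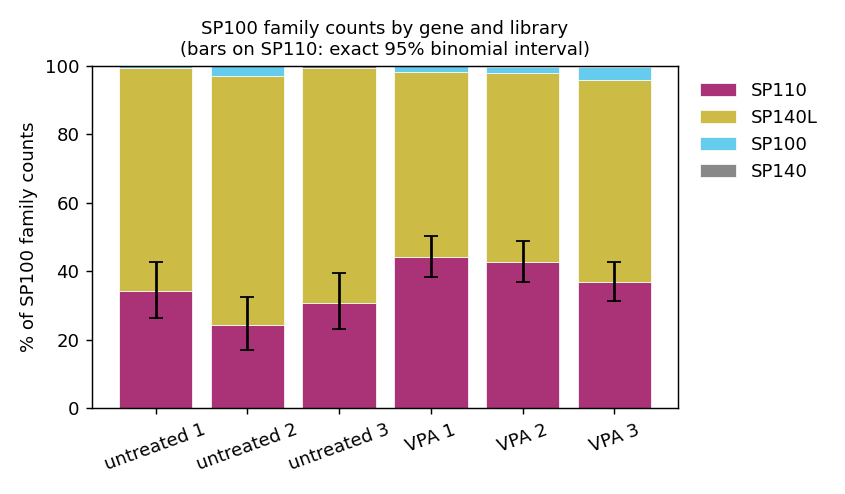
Share of the SP100 family counts (vertical axis, percent) that lay on each of the 4 genes in each library, with the exact 95% binomial interval of the SP110 share. SP110 and SP140L made up nearly all of the family's counts, and the SP110 share was 24.2% to 34.3% in untreated and 36.9% to 44.3% in VPA libraries.

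The members were also set against PML within each library. SP110 per PML was 0.0696, 0.0521 and 0.0704 without VPA against 0.166, 0.183 and 0.162 with VPA, a log2 difference of 1.43. SP140L per PML rose in log2 by 0.65, and ATF7IP2 per PML by 0.33, with no overlap between the conditions in any of the 3 ratios (exact permutation p = 0.1 each, two-sided, the smallest possible with n = 3). The ratio of PML to DAXX overlapped between conditions (difference in log2 0.13, exact permutation p = 0.2, two-sided). The ratio of ATF7IP2 to its relative ATF7IP, a difference of 0.13, overlapped as well (exact permutation p = 0.5, two-sided). These 6 ratios share genes and were not adjusted for their number.

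Among the tested genes whose normalized levels were nearest to those of SP110 over the 6 libraries were HSPB8, a small heat shock protein, and FOXO6, a forkhead transcription factor. Their root mean square differences from SP110 were 0.085 and 0.15 in log2 CPM. HSPB8 had 46.5, 33.5 and 45.1 normalized counts without VPA against 126, 123 and 105 with VPA. The same library was lowest in each condition as for SP110, which is partly built in, as HSPB8 was picked for nearness over these libraries. The likeness covers level and change in 6 libraries and says nothing of shared control.

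Of 37 genes listed within 1000000 bases of the 4 family genes, 16 were tested, 7 were higher and 4 lower, and 5 did not pass, with a median log2 fold change of 0.19. Over all tested genes 32.9% were higher and 30% lower, so the neighbours are not set apart by these counts at the adjusted p alone. With the log2 fold change threshold of 1 as well, 5 of the 16 were higher and 0 lower, against 12% and 0.503% of all tested genes. The 5 include DNER, B3GNT7 and NMUR1, and these shares were not tested against each other. Each of these genes had fewer than 10 counts in at least 1 untreated library and needed a VPA library to pass the filter on low counts. The rest of the 5, SPATA3-AS1 and C2orf72, stayed when every library had to have at least 10 counts. Under that filter 1179 of all 13882 tested genes were higher at both thresholds. With at least 10 counts in every library 12 neighbours were tested, with 4 higher, 3 lower and a median of 0.066, because DNER, B3GNT7, NMUR1 and SNORD20 left the test. Nearest to SP110 among those that passed was SLC16A14, a member of the monocarboxylate transporter family, which had 148 ± 10.3 normalized counts without VPA and 210 ± 13.2 with it (SD, n = 3 per condition; log2 fold change 0.50). ITM2C, an integral membrane protein, had a log2 fold change of 0.72, SPATA3-AS1 of 1.10 and C2orf72 of 1.48. At the edges of the window, DNER, a Notch ligand of neurons, had 3.83 ± 3.02 and 35.8 ± 4.85 normalized counts before and after VPA (SD over 3 libraries; log2 fold change 3.19). Without untreated replicate 2 this was 4.02, and the gene passed the filter on low counts through its VPA libraries. B3GNT7 had a log2 fold change of 1.19 and NMUR1, a receptor for neuromedin U, of 1.88. The 4 lower genes were NCL (-0.38), which encodes nucleolin, the small nucleolar RNA gene SNORD20 within it (-0.86), the ubiquitin ligase gene TRIP12 (-0.18) and the proteasome subunit gene PSMD1 (-0.14). SNORD20 was not called by DESeq2 (adjusted p = 0.162), and in 3 of the 6 fits with a library left out it lost its call. With library totals in edgeR SNORD20, TRIP12 and PSMD1 were not called, and PSMD1 lost its call with upper quartile (adjusted p = 0.151, edgeR) and without untreated replicate 3 (adjusted p = 0.0547, edgeR) too. Reads on SNORD20 and on its host gene NCL share bases, so the split between them is uncertain. Within 500000 bases 7 genes were tested, of which 3 were higher and 1 was lower.

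**Figure D3:**
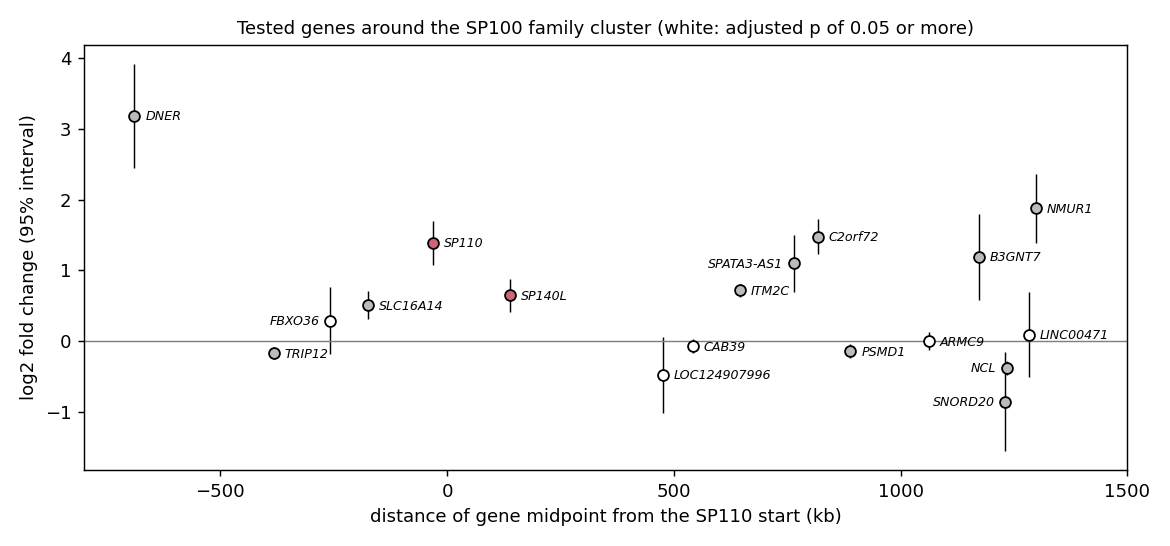
Log2 fold change with its 95% interval (vertical axis) of each tested gene around the SP100 family, by the distance of its midpoint from the first SP110 start in kilobases (horizontal axis). SP110 and SP140L are in red, grey genes passed an adjusted p of 0.05 and white genes did not. Values run from -0.86 for SNORD20 to 3.19 for DNER.

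The machinery that acts on the bodies was taken from 7 lists of 91 genes, of which 80 were tested, with 20 higher and 39 lower at an adjusted p under 0.05. With library totals as the scaling the numbers were 25 and 26, so the balance depends on the scaling. These and the counts of the single lists are to be read beside the 32.9% higher and 30% lower over all tested genes, and none was tested against them. The SUMO pathway, which modifies PML and SP100, had 18 tested genes, 1 higher and 11 lower, with a median log2 fold change of -0.17. SUMO3, a SUMO protein, had 4123 ± 76.7 normalized counts without VPA and 2586 ± 124 with it (SD, n = 3 per condition; log2 fold change -0.67, adjusted p = 1.09e-11, edgeR). SENP3, a SUMO protease, had a log2 fold change of -0.63, and SENP7, another protease of the family, was the member that rose, by 0.24. DESeq2 did not call SENP7 (adjusted p = 0.0949).

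Other proteins found at PML bodies gave 2 higher and 9 lower genes of 14 tested, with a median of -0.17. The acetyltransferase gene CREBBP had a log2 fold change of -0.52, while ZBTB16, a zinc finger repressor, rose by 0.66 and the kinase gene HIPK2 by 0.31. With library totals 4 of these genes were lower in place of 9, and with upper quartile 5. In the H3.3 deposition list, around DAXX, 1 of 8 tested genes was higher and 6 were lower, with a median of -0.20. The H3.3 gene H3-3A had a log2 fold change of -0.42, UBN1, a subunit of the HIRA complex, of -0.37, and the chaperone gene ASF1A of 0.14, the member that was higher. ASF1A was not called by DESeq2 (adjusted p = 0.212), without a filter (adjusted p = 0.113, edgeR) or in 5 of the 6 fits with a library left out, which leaves 0 genes of the list higher.

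The list around ATF7IP2, with ATF7IP, SETDB1, the HUSH complex and the HP1 proteins, had 3 higher and 6 lower of 11 tested genes and a median of -0.13. CBX5, which encodes HP1 alpha, a partner of SP100, had 4180 ± 225 normalized counts without VPA and 2754 ± 153 with it (SD, n = 3 per condition; log2 fold change -0.60). TRIM28 had a log2 fold change of -0.56, whereas ATF7IP rose by 0.19 and CBX1 by 0.13. DESeq2 did not call CBX1 (adjusted p = 0.0519). The other genes with a SAND domain, DEAF1 (-0.43), GMEB1 (-0.30) and GMEB2 (-0.48), were all 3 lower, in contrast to SP110 and SP140L, and AIRE is listed at 0 in each of the 6 libraries.

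The interferon genes were looked at because SP110, SP100 and PML answer to interferon. Of the 14 receptor and signalling genes, 4 were higher and 3 lower, with a median log2 fold change of 0.0045, and 7 were higher with library totals. The receptor subunit gene IFNAR2 rose by 0.42 and IRF2 by 0.40, and IRF9 (-0.53) and IRF7 (-0.90) were lower. DESeq2 did not call IRF2 (adjusted p = 0.137) or IRF7 (adjusted p = 0.0743). Among interferon-induced genes 12 of 21 were tested, and 9 were higher and 1 lower, with a median of 1.34. Of the 9, BST2, GBP1, IFI44L and OASL had fewer than 10 counts in at least 1 untreated library and needed their VPA libraries to pass the filter. BST2, GBP1 and OASL were below 10 in each untreated library, so they had to differ. IFI44L had 5, 14 and 14 raw counts without VPA, and the filter only favoured a difference there. With at least 10 counts in every library 8 genes were tested, 5 were higher and 1 lower, and the median was 0.89. In the main fit the log2 fold changes of these 5 were 2.38 for OAS3, 1.38 for IFITM1, 1.29 for IFI6, 1.28 for IFIT1 and 0.37 for TRIM21. OASL, a relative of the oligoadenylate synthetases, had 1, 5 and 4 raw counts without VPA against 35, 41 and 47 with VPA, a log2 fold change of 3.45. GBP1, a guanylate-binding protein, had a log2 fold change of 3.05, from 1, 2 and 3 raw counts without VPA to 22, 21 and 14 with VPA. The sizes for OASL and GBP1 rest on very low untreated counts. ISG15 was lower by contrast (log2 fold change -0.56, adjusted p = 0.0297, edgeR), a call lost with DESeq2 (adjusted p = 0.165), with upper quartile, with library totals and in 3 of the 6 fits with a library left out.

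**Figure D4:**
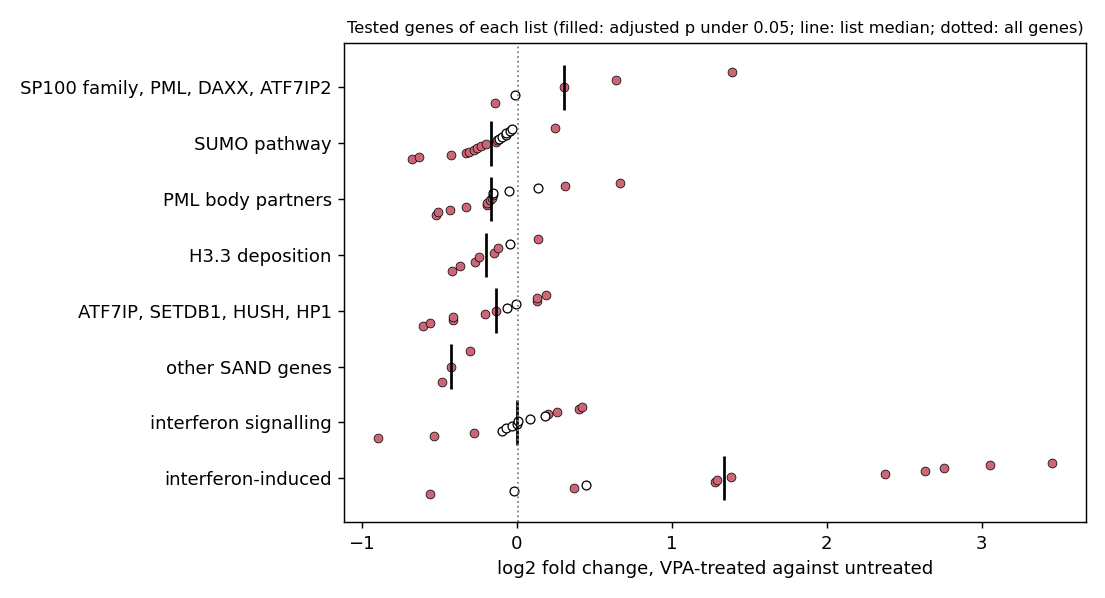
Log2 fold change (horizontal axis) of every tested gene of the members and of the 7 lists. Filled points passed an adjusted p of 0.05, black lines are list medians and the dotted line is the median of all tested genes. The interferon-induced genes had a median of 1.34, and the SUMO, body partner, H3.3 and SETDB1 lists had medians between -0.20 and -0.13. A separate fit with at least 10 counts in every library, which left out the 4 genes that passed through their VPA libraries, gave 0.89 for the interferon-induced genes.

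The libraries were alike in depth, with 18622267 to 18828495 counts on genes. All 8 markers of the HEK293 background were detected, their summed level being 17600 to 18100 normalized counts in untreated and 20900 to 22200 in VPA libraries. Of 9 leukocyte markers, taken because SP110 and SP140 are abundant in leukocytes, CD3D and MS4A1 were at 0 and 7 were detected. Their summed level was 23.8 to 42.9 normalized counts in untreated and 40.2 to 52.7 in VPA libraries. PTPRC, the pan-leukocyte marker, had 0 raw counts in each untreated library and 5, 4 and 3 in the VPA libraries. CD79A (means of 4.17 and 3.20 normalized counts without and with VPA), CD14 (means of 8.36 and 7.04) and SPI1 (means of 1.40 and 0.959) had lower means with VPA. CD14 and SPI1 overlapped between conditions, each VPA value of CD79A was below the untreated ones, and none of them had enough counts to be tested. The part of these markers in the SP110 result was not tested.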

How the data were processed

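RNA-seq of 3 untreated and 3 VPA-treated libraries was analysed. Reads had been cleaned (SOAPnuke), mapped to hg38 (STAR, 2.7.10b in the submitters' processing notes) and assigned to genes (htseq-count) by the authors, who deposited raw counts per gene symbol. The gene annotation and strand setting are not given in the sources used here. The 5 summary lines of each file name no gene and were left out (no feature 6.8% to 7.69%, ambiguous 1.97% to 2.1%, not unique 2.81% to 2.92% of listed reads). Reads without a unique place were set aside, which lowers counts of near-identical genes.

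The test was a robust quasi-likelihood fit on condition in edgeR 4.0.16 (R 4.3.3) after TMM scaling and filterByExpr (count minimum 10). The prior count was 0.125, and p-values were adjusted by Benjamini-Hochberg over 15298 genes. The study's thresholds were an adjusted p of 0.05 and a log2 fold change of 1 in size. Standard errors were taken as the size of the log2 fold change over the square root of F. Libraries of a condition differed by more than sampling noise (chi-square per gene 1.57 to 4.47). Of 196 genes changed by a log2 of 2 and tested in simulated counts of this comparison over 15047 genes, 196 were called, with 8 unchanged genes called. The simulation changed 200 genes, far fewer than were called in the data, and by more than any tested member changed. It does not speak for smaller changes, which were not simulated.

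Alternatives were DESeq2 1.42.0, other scalings and filters, a block on replicate number, and each library left out in turn. Members and lists were chosen with earlier results of these data known. Named were all members, up to 2 genes with the largest change in each direction per list (adjusted p under 0.05, mean of at least 10 normalized counts), neighbours past that p, the 3 genes nearest SP110, and ATRX; GMEB1, AIRE, BST2, IFI44L and the leukocyte markers were named after their values were seen. Some genes that this rule picks are not reported here. Start regions and coordinates are from RefSeq on GRCh38.p14, and exon lengths from GENCODE 44.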

Additional observations from a re-analysis of the deposited data

How the results depend on the processing

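SP110 and SP140L kept their direction and their call under each alternative, with log2 fold changes of 1.23 to 1.52 and 0.57 to 0.69 when a library was left out. PML had no call in any setting, and its sign turned with upper quartile (0.054), library totals (0.12) and at least 10 counts in every library (0.011). It lay between -0.058 and 0.050 with a library left out, positive without untreated replicate 1 (0.050), VPA replicate 2 (0.020) or VPA replicate 3 (0.0010). DAXX was not called with upper quartile (-0.075) or library totals (-0.0092), which left 0 members lower, and lay between -0.18 and -0.12 with a library left out. ATF7IP2 lost its call with DESeq2 (0.28), DESeq2 size factors (0.29) and no filter (0.28), and lay between 0.14 and 0.38 with a library left out, no longer called without untreated replicate 3 or any of the VPA replicates. SP100 was called without a filter (1.86), which brought the members past both thresholds to 2, and its log2 ratio of summed counts lay between 1.495 and 3.82 with a library left out, the latter without untreated replicate 2. The other named genes kept sign and call in 431 recomputations and lost a call, with the same sign, in 31. The narrower window held 3 higher and 1 lower neighbours because it holds fewer genes.

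The library totals moved the median of all tested genes to 0.14. Of the genes past the adjusted p, 73.9% were higher there, against 52.3% with TMM and 63% with upper quartile. These shares depend on the scaling, and which scaling is right was not tested. Over all genes 162 were lower at both thresholds without a filter and 43 with at least 10 counts in every library, against 77, and 1179 were higher with the latter, against 1833, as other numbers of genes are tested. The replicate block changed no member's call (SP110 1.39, 20 list genes higher and 43 lower) but gave 5 lower interferon signalling genes in place of 3. For the pairing check, same-numbered libraries deviated with r = 0.14, 0.022 and 0.083, and differently numbered ones with r from -0.11 to 0.031. The main fit did not take the numbers as pairs, and these values do not decide whether they are. With the block 5357 genes were higher and 5100 lower over all tested genes, against 5037 and 4591 without it. The SP110 share rose by 8.71 to 13.7 percentage points with a library left out. Depth limits SP100 and SP140, where a few reads decide the value.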
